A study of Mus musculus with 19 samples.

Results

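Matched humanized hotspots are the positions at which the humanized PRDM9 allele of the STUS/Hum hybrid led to double-strand breaks (DSBs) on both homologs. They were taken as the autosomal hotspots assigned to the humanized allele (HUM) at which 25 to 75% of DMC1 reads came from the B6 chromosome, ends included. There were 2714 of them among the 4729 autosomal humanized hotspots, the 10031 autosomal and 10525 total hotspots of the library, and the 74327 hotspots of all 5 libraries. Of the other humanized hotspots, 1549 were one-sided (626 cut mainly on the STUS and 923 mainly on the B6 chromosome), and 466 had no B6 fraction. The members were chosen by their B6 fraction in this library, so its values here are given as a description.

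The STUS/Hum library was made by DMC1 single-stranded DNA sequencing (SSDS) of whole adult testis from an F1 male of a B6 and STUS cross with the Prdm9 genotype HUM/STUS (how many mice is not given in the sources used here). B6 is C57BL/6J, a Mus musculus domesticus strain, and STUS is STUS/Jpia, of M. musculus musculus. The humanized allele carries the DNA-binding zinc finger array of the human PRDM9 B allele and was inherited from the B6 background parent, while the STUS allele was native to the other parent. The labels write the cross as B6xSTUS, whereas the study names the humanized hybrid STUSB6F1 or B6STUSF1 by its direction. Hum/SPRT, used below for comparison, is an F1 of B6 and M. spretus (SPRET/EiJ) with the Prdm9 genotype HUM/SPRETUS, also from whole adult testis, with 1 DMC1 library and 3 ChIP and 3 input samples of H3K4me3 (labelled rep1, rep1b and rep2). The libraries STUS/B6 (genotype B6/STUS), B6/SPRT (B6/SPRETUS) and CAST/SPRT (CAST/SPRETUS), F1 males of the same crosses from whole adult testis with 1 DMC1 library each, lacked the humanized allele; CAST is the zinc finger array of M. musculus castaneus, engineered into B6. With 1 DMC1 library per genotype no difference between genotypes or classes of hotspot was tested, and each interval below describes the spread over hotspots of 1 library. No transcripts were measured, so the tissue could not be checked against marker genes.

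PRDM9 binds DNA through its zinc fingers, trimethylates lysine 4 of histone H3 (H3K4me3) on nearby nucleosomes and so marks where meiotic DSBs form. The broken ends are resected and the recombinase DMC1 coats the single strands, which then search for the homologous sequence. Binding sites of a resident PRDM9 allele are worn away over generations because repair copies the unbroken homolog, so an allele that is foreign to both parental genomes, such as a human one, can find its sites on either homolog. The authors' DMC1 signal (heat) reflects how often breaks form at a hotspot and how long they persist.

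The gene start windows of RefSeq (250 bases before to 50 after a start, build GRCm38.p6, the assembly that mm10 names) hold the centers of 10 members, and 4 of these windows are shown because their members differ in balance and in what Hum/SPRT showed at the same position. The windows at LOC108168979 and Gm35850 held centers that were near equal on both homologs, that at Gm33047 held the strongest of the 10 and leaned to the B6 chromosome, and that at Gm33727 was the only one with a match to the degenerate 13-base motif of human recombination hotspots, in which 8 positions are fixed (7 C and 1 T). It was searched on both strands with overlapping matches kept. Capitals mark this match, which lies on the strand opposite to the one printed; each window is printed in the direction of its gene, and all 4 genes are long noncoding RNA genes.
LOC108168979, chr4:129354027-129354326, plus strand: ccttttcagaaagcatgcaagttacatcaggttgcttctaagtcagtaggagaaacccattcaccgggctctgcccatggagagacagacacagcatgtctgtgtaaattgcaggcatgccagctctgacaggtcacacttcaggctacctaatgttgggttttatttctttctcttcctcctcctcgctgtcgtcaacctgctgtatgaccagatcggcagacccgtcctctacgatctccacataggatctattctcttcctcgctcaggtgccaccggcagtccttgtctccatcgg
Gm35850, chr8:90740720-90741019, minus strand: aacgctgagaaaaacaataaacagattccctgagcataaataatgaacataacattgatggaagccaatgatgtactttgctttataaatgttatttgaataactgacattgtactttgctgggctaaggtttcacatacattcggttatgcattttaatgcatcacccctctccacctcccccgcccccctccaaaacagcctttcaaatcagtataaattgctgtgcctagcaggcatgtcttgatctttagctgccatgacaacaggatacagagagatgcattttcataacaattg
Gm33047, chr6:52579764-52580063, minus strand: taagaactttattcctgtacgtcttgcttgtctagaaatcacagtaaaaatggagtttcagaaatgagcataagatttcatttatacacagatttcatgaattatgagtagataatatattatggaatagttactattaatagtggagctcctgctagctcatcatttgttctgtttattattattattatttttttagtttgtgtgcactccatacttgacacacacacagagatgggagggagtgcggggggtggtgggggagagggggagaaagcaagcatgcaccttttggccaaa
Gm33727, chr17:25518339-25518638, plus strand: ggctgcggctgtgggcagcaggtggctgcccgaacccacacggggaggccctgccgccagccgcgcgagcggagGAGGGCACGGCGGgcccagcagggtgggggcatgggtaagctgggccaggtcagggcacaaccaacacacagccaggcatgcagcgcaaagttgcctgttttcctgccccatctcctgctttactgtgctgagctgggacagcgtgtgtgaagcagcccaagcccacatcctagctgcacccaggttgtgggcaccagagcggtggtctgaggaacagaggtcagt

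The member at LOC108168979 had its center at base 107 of the window, a DMC1 signal of 147 and 48.4% of reads from the B6 chromosome. It was called again in Hum/SPRT, where 50.6% of 622 SNP-carrying H3K4me3 reads came from B6 and H3K4me3 was enriched 12.7 times over input. The member at Gm35850 (center at base 211, signal 45.1) had 45% from B6 here and 33.3% in Hum/SPRT, with 48.96% of 817 H3K4me3 reads. The H3K4me3 split was thus near even at both positions. By DMC1, which gave no fraction for the first in Hum/SPRT, the second leaned to the M. spretus chromosome there. The member at Gm33047 (base 249, signal 172) had 68.4% from B6 here but 98.6% in Hum/SPRT, where H3K4me3 gave 86.3% of 526 reads. The member at Gm33727 (base 8, signal 44.4) had 60% from B6, and 74.2% of 1420 H3K4me3 reads in Hum/SPRT, and its motif match was centered 73 bp from the hotspot center. The motif was found in 1 of the 10 windows with a member and in 6.35% of all 31396 autosomal gene start windows, so a single match in 10 is no result, and windows that hold a center near one edge miss part of the hotspot.

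The matched humanized hotspots spanned a wide range of strength, with a few very strong ones above a large body of moderate ones. Their DMC1 signal ran from 7.63 to 473, with a median of 40.02 (95% interval of the median 38.4 to 41.8), a lower quartile of 23.7 and an upper quartile of 75.4. The strongest 271, with signals of at least 131, held 32.6% of the summed signal of the members, and the weaker 1357 held 20.5%. Matched humanized hotspots made up 27.1% of the autosomal hotspots of the library and 31.0% of its DMC1 signal, and 57.4% of humanized hotspots and 62.6% of humanized signal.

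The members were somewhat stronger than one-sided humanized hotspots as a whole. One-sided humanized hotspots had a median of 37.1 (interval 35.6 to 39.8) and a mean of 53.3, against a mean of 60.4 for the members. The 2 sides of that class differed: hotspots cut mainly on the STUS chromosome had a median of 44.98 (interval 40.8 to 49.1), above that of the members, with a nearly equal mean of 59.8, and those cut mainly on B6 a median of 34.2 (interval 32.1 to 36.4), below it. The median of the members exceeded that of one-sided hotspots on 13 of 19 autosomes. Matched hotspots of the STUS allele, 1044 in number, were weaker, with a median of 27.5 (interval 26.2 to 28.6), and humanized hotspots without a B6 fraction had a median of 23.9. When humanized hotspots with a B6 fraction were split into 4 groups of equal size by signal, 62.6, 61.9, 62.4 and 67.7% were matched from the weakest to the strongest group (95% Wilson intervals 59.6 to 65.4% and 64.9 to 70.5% for the first and last). The strongest group held the largest matched share and the smallest share cut mainly on B6, which was 26.5% in the weakest and 15.4% in the strongest group, while the share cut mainly on STUS was 10.9 and 16.9%.

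The 10 strongest members lay on 7 autosomes, 8 of them within genes, where 65.7% of all members lay. The strongest, with a DMC1 signal of 473 at position 37510071 of chromosome 13, had 45.8% of its reads from B6 and lay where the long noncoding RNA genes Gm30863 and Gm29590 overlap. The next, at 460 on chromosome 10 at 17565329 within Gm32543, had 40.2%. Protein-coding genes held 5 of the 10, and 58.4% of all members. Zcchc2 held one on chromosome 1 at 106002504, with a signal of 413 and 46.7% from B6. Cfap54, which encodes a protein of cilia and sperm tails, held one on chromosome 10 at 93007630, with a signal of 408 and 50.5%. The hotspot in Mdn1, which encodes an ATPase of ribosome assembly, lay on chromosome 4 at 32726823, with a signal of 376 and 45.8%. The hotspots at Gm30863 and Gm29590 and in Gm32543, Zcchc2, Cfap54 and Mdn1 had between 40.2 and 50.5% from B6, inside the middle 50% of all members. The hotspot in Slc26a4, which encodes the anion exchanger pendrin, lay on chromosome 12 at 31533731, with a signal of 390 and 60.8%. That in Reln, which encodes reelin, an extracellular guide of migrating neurons, lay on chromosome 5 at 22153092, with a signal of 388 and only 28.3% from B6. On the same autosome, at 20754352 and 4.31 kb from Phtf2, a hotspot with a signal of 407 had 73.5%. The hotspots at Reln and Phtf2 thus lay close to the lower and upper limits of the matched range, so a strong hotspot was not always an evenly split one. The remaining members of the 10 lay 20.2 kb from Sdcbp (chromosome 4, 6345506, signal 386, 56.2%) and within Gm16090 (chromosome 18, 20641476, signal 367, 42.9%).

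The members were centered below an equal split, toward the STUS chromosome. The median B6 contribution was 45.4% (95% interval of the median 44.8 to 45.8%), the mean 46.4% ± 12.0 (SD over 2714 hotspots), and the middle 50% of the hotspots lay between 37.8 and 54.2%. Below 50% lay 1718 hotspots (63.3%), above it 911 (33.6%), and 85 at 50% exactly. The fullest 5-point bin was that from 40 to under 45%, with 462 hotspots, with 373 in the bin below it and 403 in the bin above. Every autosome leaned the same way, with medians between 42.2% on chromosome 16 and 47.5% on chromosome 10, and more hotspots below 50% than above it on 19 of 19 autosomes. Weighting by DMC1 signal gave a mean of 46.1%.

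**Figure D1:**
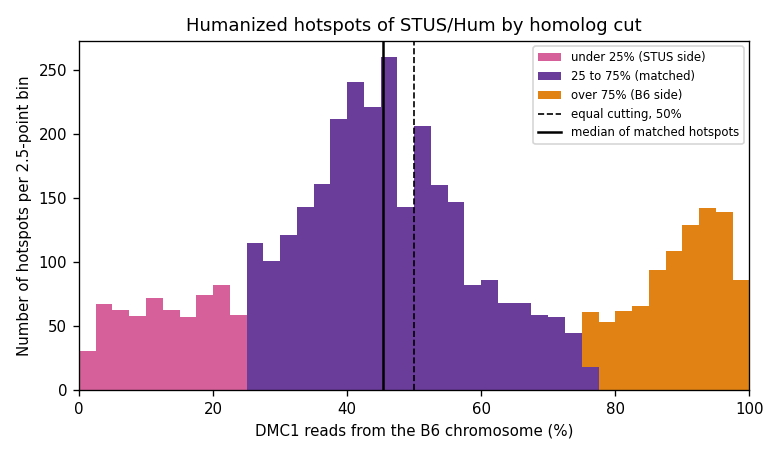
Number of autosomal humanized hotspots of STUS/Hum (y axis) by the percentage of DMC1 reads from the B6 chromosome (x axis, bins of 2.5 points), with the matched range in purple, hotspots cut mainly on the STUS chromosome in pink and those cut mainly on B6 in orange. The solid line marks the median of the matched hotspots, 45.4%, which lies left of the dashed line at 50%, and the orange group (923) is larger than the pink one (626).

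The lean was not shared by every class within the same limits. Matched hotspots of the STUS allele had a median of 50% (interval 47.9 to 50%), with 521 below and 485 above an equal split, whereas the 335 matched hotspots without an assigned allele had 45.5% (interval 42.9 to 47.1%). Outside the limits the humanized hotspots leaned the opposite way, with more one-sided hotspots cut mainly on B6 than on STUS. Read counts behind each fraction are not given, so how much of the spread of single hotspots is counting error is unknown.

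Stronger members were less spread in their B6 contribution than weaker ones, around medians no closer to 50%. Between 40 and 60% lay 1478 members, 54.5% of them (Wilson interval 52.6 to 56.3%), and 769 (28.3%) lay between 45 and 55%. In 4 groups of equal size by DMC1 signal, the share between 40 and 60% was 49.6, 50.4, 56.5 and 61.3% from the weakest to the strongest, and the distance between the quartiles of the B6 contribution narrowed from 19.2 to 13.4 percentage points. The medians of the groups, 46.7, 44.9, 44.8 and 45.5%, stayed below 50% throughout, and the share of hotspots below 50% went from 55.5% in the weakest group to 67.5% in the strongest. The part of read number in this narrowing was not tested.

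**Figure D2:**
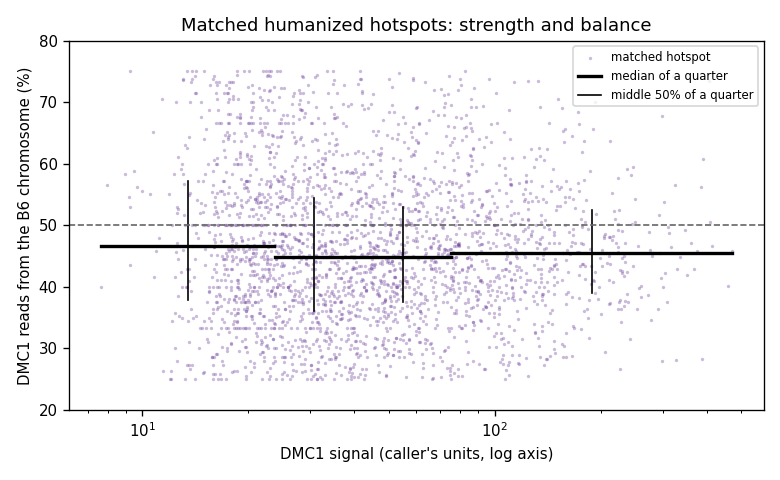
Each point is 1 of the 2714 matched humanized hotspots, by DMC1 signal (x axis, log scale) and the percentage of DMC1 reads from B6 (y axis). Thick lines give the median of each of 4 equal groups by signal and thin lines its middle 50%, which narrows from 19.2 points on the left to 13.4 on the right, around medians that all lie below the dashed line at 50%.

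At the limits of the rule, 26 members had exactly 25% and 18 exactly 75% from B6. The next values inside were 25.2 and 74.8%, and the nearest humanized hotspots outside had 24.8 and 75.1%. Within 2 points of the lower limit lay 95 members and 51 hotspots outside it, and within 2 points of the upper limit 54 members and 35 outside.

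Every autosome carried matched humanized hotspots, in numbers that followed its length. Chromosome 2 had the most, 234, and chromosome 19 the fewest, 88. Over the length from the first to the last hotspot of any allele, 2378 Mb in all, this came to 1.14 members per Mb. Per Mb chromosome 19 was the densest, at 1.56, followed by chromosomes 11 (1.36) and 18 (1.36), and chromosome 1 the sparsest, at 0.962, followed by chromosomes 13 (0.972) and 4 (0.994). Chromosomes 19 and 1 were also the densest and the sparsest in all humanized hotspots, at 2.89 and 1.66 per Mb. The matched share of humanized hotspots with a B6 fraction lay between 58.3% on chromosome 19 and 68.3% on chromosome 7, so the densest autosome had the lowest matched share. Median DMC1 signals of the members lay between 33.0 on chromosome 7 and 47.2 on chromosome 10.

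Along the autosomes the members, like humanized hotspots in general, were most frequent at the high coordinate end. The fewest members lay at the low coordinate end, where mouse autosomes have their centromere, with nearly as few just past the middle. When the length of each autosome was divided into 10 equal parts, the last part held 358 members, 13.2% of them, and the first 224, 8.25%. All humanized hotspots had 13.7 and 9.22% and all hotspots of the library 12.2 and 10.4% in these parts. The sixth part held 228 members, 8.40%, and was the part with the fewest humanized hotspots, 378 or 7.99%. The matched share was lowest in the first part, at 56.0% (Wilson interval 51.1 to 60.8%), next lowest in the last, at 60.7% (interval 56.7 to 64.5%), and between 63.2 and 67.5% in the others. The median B6 contribution lay between 43.5 and 46.7% in all 10 parts.

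Neighbouring members lay a median of 479 kb apart (95% interval 450 to 512 kb over 2695 distances), with quartiles of 189 and 1093 kb. The spacing was uneven: its standard deviation was 1.29 times its mean of 864 kb, 215 distances were under 50 kb and 46 under 10 kb, while 755 exceeded 1 Mb and together covered 70.2% of the length between members. All humanized hotspots lay a median of 278 kb apart, and matched STUS hotspots 1376 kb. The closest pair stood 933 bp apart on chromosome 11, at 23590588 and 23591521 within 0610010F05Rik, with signals of 73.2 and 118 and with 37.5 and 40% from B6. The next, 1215 bp apart on chromosome 5 within Gm9899 (30578140 and 30579355), had signals of 79.99 and 102 and B6 contributions of 39.0 and 38.5%. Pairs this close may share reads. The most members within 1 Mb was 8, reached on chromosomes 7, 15 and 19; on chromosome 15, between 58254636 and 59210392, all 8 humanized hotspots were matched, with 43.6 to 67.7% from B6.

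**Figure D3:**
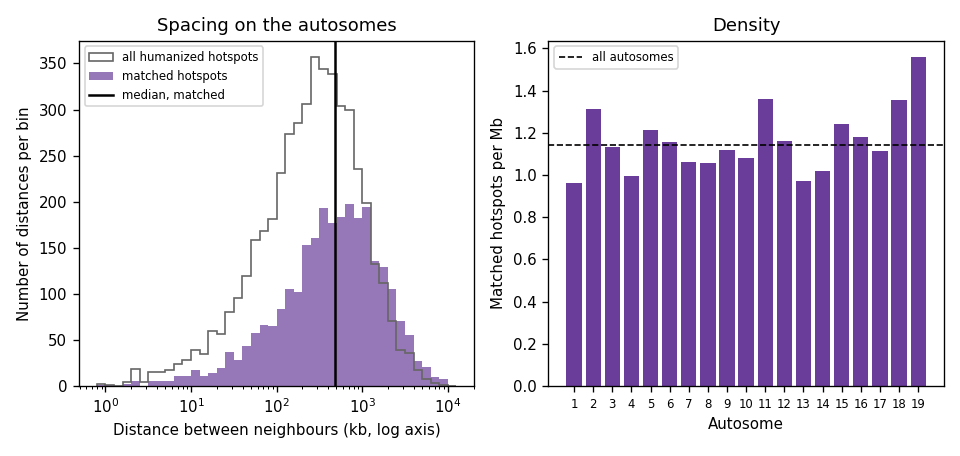
Left, the number of distances between neighbouring hotspots of one autosome (y axis) by length in kb (x axis, log scale), for matched humanized hotspots in purple and all humanized hotspots as a grey outline; the line marks the median of the matched ones, 479 kb. Right, matched hotspots per Mb on each autosome, with the value over all autosomes, 1.14, as a dashed line; chromosome 19 stands highest at 1.56.

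Neighbours along the chromosome showed little relation in balance or strength. Across 2695 neighbouring pairs of members, Spearman's rho was 0.028 between their B6 contributions and -0.0099 between their DMC1 signals, as a description over pairs that share hotspots. Of all 4263 humanized hotspots with a B6 fraction 2714 were matched, with 58.3 to 68.3% on single autosomes. The next humanized hotspot with a B6 fraction was matched after 64.7% of members (Wilson interval 62.8 to 66.4%). It was matched after 59.8% of hotspots cut mainly on B6 (interval 56.6 to 62.9%). After those cut mainly on STUS it was matched in 65.2% (interval 61.4 to 68.8%). The share was thus lowest after hotspots cut mainly on B6, and every one of these shares lay within the range over autosomes.

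There were 39 stretches of over 5 Mb without a matched humanized hotspot between 2 members, on 16 autosomes, 256 Mb or 10.8% of the length. They were not empty. They held 529 hotspots of the library, of which 118 were humanized: 57 cut mainly on B6, 33 mainly on STUS and 28 without a B6 fraction. Humanized hotspots were sparser there, at 0.461 per Mb against 1.99 over all autosomes, which the choice of stretches without members in part fixes. STUS hotspots, which that choice did not use, were at 1.09 per Mb against 1.55. In 4 of the 39 stretches no humanized hotspot was called.

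The largest of these gaps, 9.50 Mb, ran on chromosome 1 from 96500749 to 106002504, where it ended at the third strongest member, in Zcchc2. It held 18 hotspots, 4 of them humanized (3 cut mainly on B6, 1 on STUS) and 7 of the STUS allele, and few genes, with 1.79 protein-coding genes per Mb against 8.58 over the autosomes. The second, 9.14 Mb of chromosome 7 from 6812145 to 15957060, held 11 hotspots, 5 of them humanized, and 111 protein-coding genes, of which 53 were of the Vmn vomeronasal receptor family, whose products detect pheromones. The third, 8.97 Mb of chromosome 14 (36264316 to 45232246), held 3 humanized hotspots and 74 protein-coding genes, 42 of them predicted genes with Gm names. The fourth, 8.89 Mb of chromosome 17 (33557992 to 42446163), was rich in genes, with 247 protein-coding ones of which 46 were Olfr olfactory receptors. It held 7 humanized hotspots, 3 of them without a B6 fraction. The fifth, 8.76 Mb of chromosome 5 (77388649 to 86147865), was poor in genes (0.913 per Mb) and held 22 hotspots, of which 12 were STUS and 7 of those matched, but only 3 humanized. The gene families were counted after the gaps had been seen. The gaps thus lay both in gene-poor and in gene-rich sequence.

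**Figure D4:**
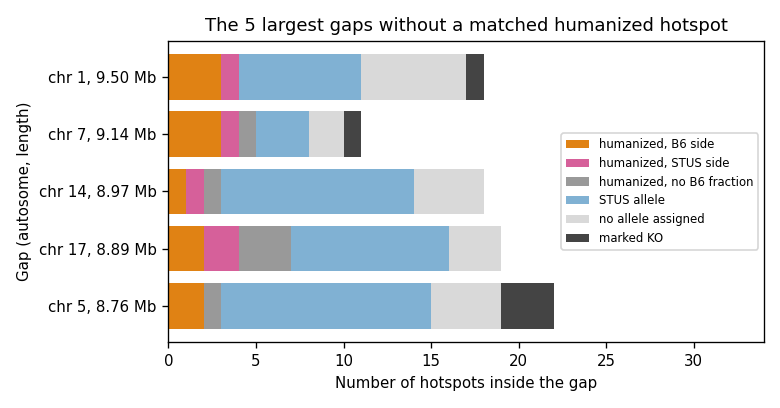
Number of STUS/Hum hotspots (x axis) inside each of the 5 largest gaps between neighbouring matched humanized hotspots (y axis, autosome and length), by allele and, for the humanized allele, by homolog cut. Each gap held between 3 and 7 humanized hotspots, none of them matched, and in the gap on chromosome 5 STUS hotspots (12) outnumbered them.

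In Hum/SPRT, the humanized hotspots called within the same 5 gaps numbered 9, 8, 4, 9 and 2 from the largest gap to the fifth. A DMC1 fraction was given for 7, 7, 4, 7 and 1 of them, of which 1, 4, 2, 2 and 0 were matched. In that cross, positions inside 4 of the 5 gaps were thus cut on both homologs, and the fifth gap held fewer humanized hotspots than in STUS/Hum. Since the gaps were chosen for holding no matched humanized hotspot in STUS/Hum, no comparison is drawn from these counts. Beyond the outermost members, the longest stretches up to the first or last hotspot of the library were 4.02 Mb at the low end of chromosome 3 and 3.35 Mb at the high end of chromosome 5.

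In their position relative to genes the members were close to humanized hotspots in general. The center lay within a RefSeq gene for 1784 members, 65.7% (Wilson interval 63.9 to 67.5%), against 64.6% of all humanized hotspots. For one-sided hotspots it was 62.8% (interval 60.4 to 65.2%). Within 1 kb of the start of a protein-coding gene lay 19 of 2600 members, 0.731% (interval 0.468 to 1.14%), against 0.639% of all humanized hotspots, and within 10 kb 16.3%, against 16.6%. Chromosome 18 is not in the count of starts.

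Members were found again where the humanized allele was present and hardly elsewhere. In Hum/SPRT a hotspot was called within 500 bp of 1944 members, 71.6% (Wilson interval 69.9 to 73.3%), against 68.3% of all humanized hotspots of STUS/Hum and 66.8% (interval 64.4 to 69.1%) of one-sided ones. The humanized allele was assigned to 1913 of these, none was assigned to another allele, and 31 had no allele. In the libraries without the humanized allele, a hotspot lay within 500 bp of 9 members in STUS/B6 (0.332%; all humanized hotspots 0.338%), 26 in B6/SPRT (0.958%; 1.12%) and 12 in CAST/SPRT (0.442%; 0.402%). The authors assigned alleles by comparison with other mice, so the scarcity of hotspots there is in part what the assignment used. The same may hold for the share called in Hum/SPRT and for the humanized labels there. Which mice served for the assignment in each library is not given in the sources used here.

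Whether a member was found again went with its strength. The members found had a median signal of 53.2 and the 770 not found one of 22.8. From the weakest to the strongest of the 4 groups by signal, 38.6, 62.8, 87.6 and 97.5% were called in Hum/SPRT, and of the 100 strongest, 99 were. Across the 1944 shared positions the log2 DMC1 signals of both libraries had a Pearson's r of 0.668 and a Spearman's rho of 0.643. The log2 signal in STUS/Hum and log2 H3K4me3 enrichment in Hum/SPRT had an r of 0.334 and a rho of 0.329. Both are descriptions across hotspots of 1 library each, which share the B6 chromosome and the humanized allele.

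The B6 fraction in Hum/SPRT is the same measure in a library that the rule did not use, with the STUS homolog replaced by that of M. spretus. Of the 1491 shared members with a DMC1 fraction there, 797 were again matched, 53.5% (Wilson interval 50.9 to 56.0%), against 44.7% of all humanized hotspots of STUS/Hum. Of one-sided humanized hotspots, 26.3% were matched there (215 of 816; interval 23.4 to 29.5%), and the share of the members was the higher on 19 of 19 autosomes, on which it ran from 40.3 to 66.7%. Members that left the matched range did so mainly toward B6: 589 (39.5%) had over 75% of reads from B6 and 105 (7.04%) had under 25%. Over all humanized hotspots of STUS/Hum these shares were 44.99 and 10.3%, both larger than among the members. Of humanized hotspots cut mainly on B6 in STUS/Hum, 73.1% were also cut mainly on B6 in Hum/SPRT, and of those cut mainly on STUS, 55.8% were cut mainly on the M. spretus chromosome.

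**Figure D5:**
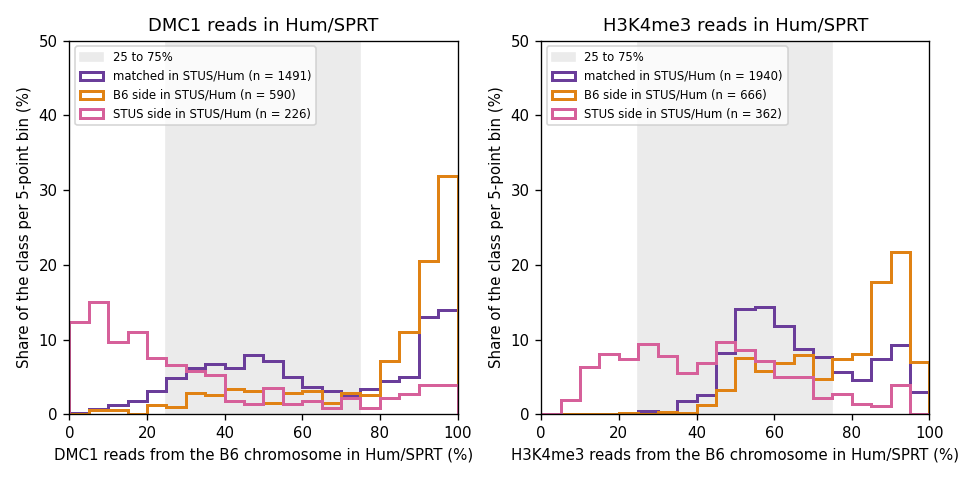
Share of each class of STUS/Hum humanized hotspots (y axis, bins of 5 points) by the percentage of reads from the B6 chromosome in Hum/SPRT (x axis), for DMC1 (left) and H3K4me3 (right), with the matched range shaded. By DMC1 the members (purple) have a broad peak within the shaded range and another above 90%; hotspots cut mainly on B6 (orange) lie furthest right, with medians of 90.9% by DMC1 and 83.3% by H3K4me3, and those cut mainly on STUS (pink) lie furthest left.

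The exact balance carried over only weakly. The B6 contributions of the 1491 shared members in both libraries had an r of 0.116 and a rho of 0.110 within the narrow range that the rule allows, and 25.5% differed by at most 10 percentage points. The median of Hum/SPRT minus STUS/Hum was 13.3 percentage points. Members between 40 and 60% in STUS/Hum were matched again in 55.6% of cases (interval 52.2 to 58.8%), those from 25 to under 40% in 52.5% (interval 47.6 to 57.3%) and those over 60% in 46.7% (interval 40.1 to 53.4%).

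The 589 members cut mainly on B6 in Hum/SPRT were strong in STUS/Hum, with a median signal of 61.3 (interval 58.7 to 65.8), against 51.3 (interval 48.2 to 54.8) for the 797 matched in both crosses and 35.9 (interval 30.5 to 41.4) for the 105 cut mainly on the M. spretus chromosome. In Hum/SPRT the order was reversed, at 34.1, 44.7 and 63.8. These classes hold only members called in Hum/SPRT with a fraction there, and calling went with signal. The part of this selection in the reversed order was not tested. The B6 contributions of these classes in STUS/Hum were alike, with medians of 46.9, 45.6 and 42.9%.

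The strongest members showed the same division. All of the 10 strongest were called in Hum/SPRT, and 9 had a DMC1 fraction there. Matched again were those within Gm32543 (39.9%), Slc26a4 (61.0%) and Mdn1 (46.2%) and that near Sdcbp (53.1%), each close to its value in STUS/Hum. Cut mainly on B6 were those at Gm30863 and Gm29590 (97.3%), Zcchc2 (95.2%), Cfap54 (95.01%) and Phtf2 (99.7%), and, just past the limit, Reln (75.2%, against 28.3% in STUS/Hum). The first group thus hardly moved, while 4 of the second group went almost wholly to B6. Of the 100 strongest members, 85 had a fraction in Hum/SPRT, of which 51 were matched, 33 cut mainly on B6 and 1 mainly on the M. spretus chromosome. Among members with a fraction in Hum/SPRT, the share matched again by DMC1 was higher in the weaker groups. From the weakest to the strongest of the 4 groups by signal it was 59.6, 59.4, 47.1 and 53.1%. The Wilson intervals of the weakest (52.5 to 66.3%) and the strongest (48.8 to 57.3%) overlapped. These shares rest on 193 of 679 members in the weakest group and 522 of 679 in the strongest, since calling went with signal. The part of this selection was not tested. By H3K4me3 the shares were 79.8, 75.6, 63.5 and 68.1%.

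H3K4me3 was measured in Hum/SPRT and not in the STUS cross, and its fractions rest on a median of 589 SNP-carrying reads at shared members. By this mark 1356 of 1940 members, 69.9% (interval 67.8 to 71.9%), had 25 to 75% of reads from B6, against 63.1% of all humanized hotspots and 48.2% (interval 45.1 to 51.2%) of one-sided ones. The one-sided class was not uniform in this. Hotspots cut mainly on STUS had a share of 67.1% (interval 62.1 to 71.8%), close to that of the members. Those cut mainly on B6 had 37.8% (interval 34.2 to 41.6%). Over 75% from B6 lay 580 members (29.9%) and under 25% lay 4 (0.206%), against 33.97 and 2.96% of all humanized hotspots. Of the 1491 members with both fractions, 778 were matched by both readouts, 510 by neither, 184 by H3K4me3 alone and 19 by DMC1 alone. The readouts of Hum/SPRT thus went together at these positions (r 0.916, rho 0.901), and the mark was matched at 101 of the 105 members that DMC1 placed on the M. spretus side. Median H3K4me3 enrichment was 6.94 at shared members (quartiles 4.68 and 9.99) and 5.70 at one-sided humanized hotspots (quartiles 3.74 and 7.93). It was 7.94 at members matched in both crosses and 5.20 at those cut mainly on B6 in Hum/SPRT.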

How the data were processed

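DMC1 SSDS and H3K4me3 ChIP-seq were made from whole adult testis. According to the submitters' processing notes reads were mapped with BWA to mm10. Per the study's methods, hotspots were called from the reads of single-stranded origin, each was given a PRDM9 allele from its presence in other mice, and SNPs told the homologs apart. Each genotype has 1 deposited table, matched here to its sample by the alleles it names. The deposited DMC1 signal was computed by the authors, and its scaling to depth is not given in the sources used here. The deposited fraction of DMC1 reads from B6 comes without read numbers, so its depth is unknown. For H3K4me3 in Hum/SPRT, the authors deposited a ratio of enrichment over input (formula not given in the sources used here), a fraction of reads from B6 and counts of SNP-carrying reads, taken as pooled over samples since there is 1 column each. Another 28 columns, among them p-values and a mark for sharing with other mice, were not used here.

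Hotspots of 2 libraries were taken as the same with centers within 500 bp. Shares have 95% Wilson intervals and medians 95% order-statistic intervals, which cover the spread over hotspots only. Gene positions and gene start windows are those of RefSeq for GRCm38.p6. Tables were read with pandas 2.3.3 under Python 3.11.15, intervals came from scipy 1.17.1 with numpy 2.4.6, figures were drawn with matplotlib 3.10.9, and the scripts were tested on simulated data. Hotspots named were the 10 strongest members, the 5 largest gaps, the closest pairs, the densest and sparsest autosomes and the values next to the limits; the windows shown with sequence, the second closest pair and the densest 1 Mb windows were chosen after their values were seen. The members, limits and comparisons were chosen with earlier results of these data known. No genome of the files' build was used here, so no sequence around other hotspots is shown.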

Additional observations from a re-analysis of the deposited data

How the results depend on the processing

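Of 22 alternatives to 9 results, 11 stayed within 1.5 times a count or within the 95% interval of a share or median, and 11 moved further. The largest gap has no such interval, and its change to 8.97 Mb was counted among those that moved. Limits of 30 to 70% gave 2386 members, limits of 10 to 90% gave 3563, and adding the X chromosome added none. Males carry no second X homolog, so this last alternative could hardly have added any. Keeping only hotspots at or above the median DMC1 signal of the library left 1567 members, with a median spacing of 891 kb and 57.4% of them between 40 and 60% from B6; weighting by signal gave 58.9%. With limits of 10 to 90%, the median signal of the members was 35.9, the median spacing 358 kb and the largest gap 8.97 Mb. Adding humanized hotspots without a B6 fraction gave a median spacing of 404 kb and left the largest gap at 9.50 Mb. The median B6 contribution stayed at 44.8 to 45.5% under both alternatives run. With centers within 250 bp, 65.3% of members were called in Hum/SPRT. The share matched again by DMC1 was 46.3% with limits of 30 to 70% in both libraries and 70.7% with 10 to 90%. The cause of these shifts was not tested. The shares matched again by H3K4me3 moved little, with 69.8% at 250 bp and 70.01% with at least 50 SNP-carrying reads.

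Each result rests on 1 DMC1 library per genotype, and the read number behind each DMC1 fraction is unknown, so the precision of single hotspots could not be given. No paired analysis was possible because no result comes from a test and the tables carry no column per replicate.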
